A study of Homo sapiens with 3 samples.

Results

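The genes described are the numbered zinc finger (ZNF) genes of chromosome 19. They were taken as every protein-coding gene on that chromosome whose symbol is ZNF followed by a number, with pseudogenes and antisense genes left out. The rule gave 251 genes out of 60554 in the count table, among them 4 readthrough genes that join a ZNF gene to a neighbour. RNA was counted in KYSE30, an established cell line from a human esophageal squamous cell carcinoma. The 3 stable lines carried a pLKO.1-blast vector with the first or the second shRNA against the small nucleolar RNA SNORD12B, or, in the control line, with a scrambled shRNA that matches no known mammalian gene. All 3 were grown with 10% fetal bovine serum, left with the virus for 24 hours and kept in 5 ug/mL blasticidin for 2 weeks to select the transduced cells. Each line gave 1 library, so no comparison of 2 libraries below has a replicate check, and how cells or clones of a line vary was not measured.

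Most ZNF proteins of this chromosome join a KRAB domain to a row of C2H2 zinc fingers, each a small fold held by a zinc ion that reads a few bases of DNA. The KRAB domain recruits TRIM28 (also called KAP1), which in turn brings the histone methyltransferase SETDB1 and heterochromatin proteins, and many of the targets are transposable elements. The genes arose by repeated local duplication, so they lie in clusters of relatives, and they are transcribed at low levels in most cell types.

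The genes share stretches of sequence. Between 2 fingers lies a linker that is nearly the same from gene to gene. Its coding word ACTGGAGAGAAACC was the 14-base word held by the most coding sequences of the chromosome 19 genes, chosen without regard to other genes. It occurred on the coding strand in 149 of 249 of them with an annotated coding sequence (59.8%), in 77 of 264 ZNF-numbered genes of other chromosomes (29.2%) and in 19 of 18949 other protein-coding genes (0.1%). Of its 631 copies, 625 were in frame. Neighbouring copies lay 84 bases apart in 225 of 482 pairs and a multiple of 84 apart in 463, which is the length of 1 finger with its linker. The stretches below, read 5′ to 3′ from GENCODE 29 transcripts, show 3 linkers (capitals) around 2 fingers (lower case) in a trio of genes whose values are given later. The bases are counted from the first base of the start codon.
ZNF506 coding bases 670 to 851: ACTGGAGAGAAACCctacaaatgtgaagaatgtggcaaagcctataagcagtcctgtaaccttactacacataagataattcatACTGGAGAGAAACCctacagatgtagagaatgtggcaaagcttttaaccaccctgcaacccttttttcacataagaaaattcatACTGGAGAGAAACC
ZNF708 coding bases 1411 to 1592: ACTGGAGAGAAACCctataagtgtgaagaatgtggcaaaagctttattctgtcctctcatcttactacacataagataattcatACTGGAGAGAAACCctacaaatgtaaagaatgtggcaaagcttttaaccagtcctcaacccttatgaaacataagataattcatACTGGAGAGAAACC
ZNF714 coding bases 1006 to 1187: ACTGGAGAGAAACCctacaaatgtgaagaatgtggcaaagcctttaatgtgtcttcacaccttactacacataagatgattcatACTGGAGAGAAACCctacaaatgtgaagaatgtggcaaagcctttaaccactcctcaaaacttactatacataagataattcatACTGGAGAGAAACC

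Their promoters share a shorter word. In RefSeq promoters of build GRCh38.p14, running from 250 bases before the gene's start to 50 after it, CCTGATTGGA was the 10-base word, read on both strands, with the largest excess share among the 219 chromosome 19 ZNF genes that matched a promoter by symbol. It was held by 44 of these promoters (20.1%), by 14 of 215 of ZNF-numbered genes on other chromosomes (6.51%) and by 19 of 14787 of other protein-coding genes (0.128%). The word was chosen against both of these comparison sets together, so a lower share in them follows from the choice. In 43 of the 44 it was read on the strand opposite to the gene, so that the gene's own strand has TCCAATCAGG, which contains the letters CCAAT of the CCAAT box. It began 24 to 131 bases before the start, with a median of 58. The windows below are 60 bases long, with the word in capitals, and are shown because they belong to genes described here. ZNF791 and ZNF490 start back to back and share 1 window. ZNF625 and the readthrough gene ZNF625-ZNF20 also share 1 window, which is not printed. Both pairs are counted gene by gene, so the 44 promoters are fewer separate sites.
ZNF57 promoter, chr19:2900847-2900906, minus strand: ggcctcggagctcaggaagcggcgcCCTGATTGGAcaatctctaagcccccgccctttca
ZNF823 promoter, chr19:11739015-11739074, plus strand: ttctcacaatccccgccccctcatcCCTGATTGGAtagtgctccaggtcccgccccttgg
ZNF791 and ZNF490 promoter, chr19:12610849-12610908, minus strand: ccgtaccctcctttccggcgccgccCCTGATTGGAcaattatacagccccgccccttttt
ZNF714 promoter, chr19:21082119-21082178, minus strand: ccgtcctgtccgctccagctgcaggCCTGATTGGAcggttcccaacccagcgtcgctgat
ZNF708 promoter, chr19:21329408-21329467, plus strand: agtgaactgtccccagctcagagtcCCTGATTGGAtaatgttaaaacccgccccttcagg
ZNF91 promoter, chr19:23395496-23395555, plus strand: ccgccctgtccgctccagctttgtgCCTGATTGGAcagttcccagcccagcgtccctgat

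The word was not spread evenly along the chromosome. Runs of ZNF genes whose starts lie no more than 500 kb apart, with at least 5 tested genes, gave 9 blocks, called A to I from the short-arm end, which hold 232 of the 251 genes. The word was found in 26 of 29 promoters of block C (89.7%), in 15 of 25 of block B (60.0%), in 3 of 17 outside the blocks (the neighbours ZNF556, ZNF57 and ZNF77) and in none of blocks A, D, E, F, G, H and I. A match is a description of letters and was not tested as a binding site.

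**Figure D1:**
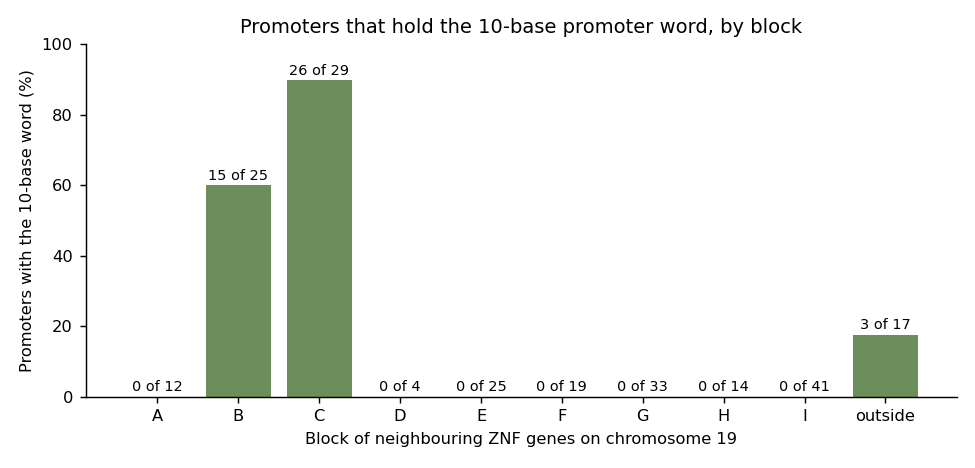
Share of RefSeq promoters that hold the 10-base word, by block A to I and for genes outside the blocks (bars, percent of promoters, counts above each bar). Only blocks B and C and a few genes outside the blocks have it, with 89.7% in block C.

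The libraries held 15146805 counts in the line labelled shRNA 1, 17336936 in that labelled shRNA 2 and 15473922 in the control. SNORD12B itself had 15 counts in the library labelled shRNA 1, 1 count in that labelled shRNA 2 and 7 in the control. Relative to the control the ratio was 2.16 with a 95% interval of 0.831 to 6.28 in the library labelled shRNA 1 and 0.126 with an interval of 0.0028 to 0.982 in that labelled shRNA 2, counting error only. The knockdown is thus not seen in the library labelled shRNA 1, and directions drawn from it below rest on its label. These few counts come from data labelled as mRNA, and how well they measure a small nucleolar RNA was not tested. They do not settle how far either shRNA lowered SNORD12B. All 10 squamous markers had counts in every library, although KRT5 had 3 counts in shRNA 1, 2 in shRNA 2 and 1 in the control. Their summed level was 1300 CPM (counts scaled to library size) in shRNA 1, 1900 in shRNA 2 and 2240 in the control. Markers of blood and endothelium summed to at most 5.81 CPM in any library, while the 4 fibroblast genes summed to 9.34 CPM in shRNA 1, 13.7 in shRNA 2 and 16.0 in the control. COL1A1 gave nearly all of that (9.34, 13.2 and 15.9 CPM), PDGFRB had 0, 8 and 1 counts in the same order, and COL1A2 and DCN were at 0 in every library.

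Of the 251 genes, 177 had enough counts to be tested, 50 had no count in any library, and 24 had some counts, never more than 11 in a library, but were not tested. The genes without a count were spread unevenly over the blocks. Block C, at 19.7 to 24.1 Mb, held 19 of them among its 37 genes, including ZNF43, ZNF85, ZNF208 and ZNF257 (named after their values were seen). Block B had 9 of 26, block G 10 of 40, block H 4 of 16, block E 4 of 27 and block A 2 of 14, while blocks D and F had none and block I had 1 of 44 (ZNF135). A count of 0 allows up to 3 counts in a library, so low transcription of these genes was not detectable at this depth. Some of them share much of their exon length with another gene on the same strand, such as ZNF177 (90.1%), ZNF625-ZNF20 (99.9%) and ZNF625 (83.3%). For ZNF43, ZNF85, ZNF208 and ZNF257 this share was 0.0%. Whether reads on shared exons went uncounted was not tested, so a count of 0 need not mean low RNA in genes with such overlap. ZNF93, known for repressing LINE-1 elements and named here after its values were seen, had 0 counts in shRNA 1, 1 in shRNA 2 and 1 in the control. ZNF91, which represses SVA elements and was named in the same way, had 9.21 CPM in shRNA 1, 8.86 in shRNA 2 and 9.44 in the control.

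The family took 0.209% of all counts in the library labelled shRNA 1, 0.216% in that labelled shRNA 2 and 0.191% in the control. Summed levels were 2084, 2156 and 1929 CPM in the same order. Per length, the tested genes ranged from 0.0471 to 23.8 RPKM (reads per kilobase of exon, scaled to library size, mean of the 3 libraries). Their median was 1.6 RPKM, against 2.65 RPKM for tested ZNF-numbered genes of other chromosomes and 5.58 RPKM for tested protein-coding genes. Of the 177, 13 lay above that last median.

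**Figure D2:**
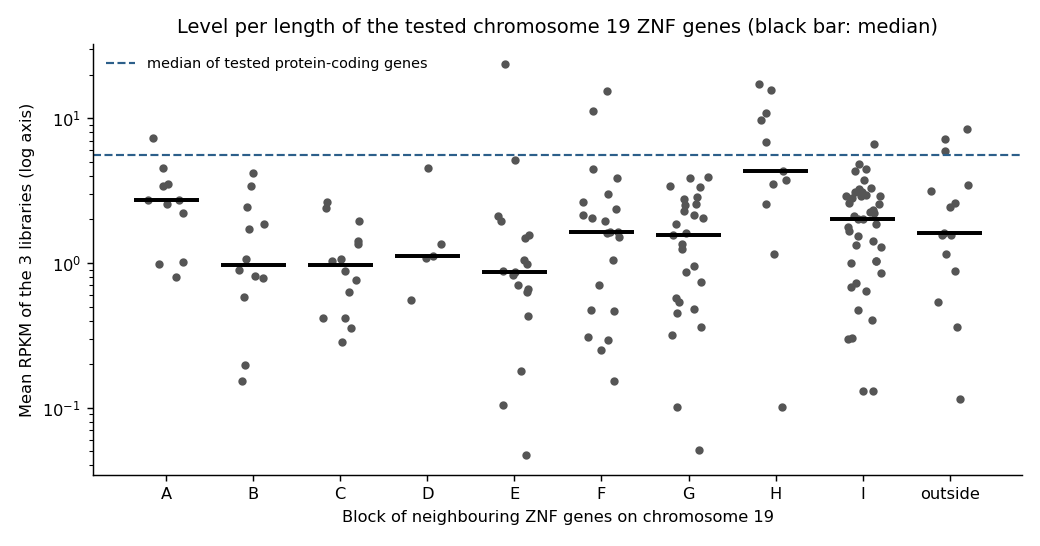
Mean RPKM of the 3 libraries (log axis) for each tested gene (points) by block along the chromosome, with block medians (black bars) and the median of all tested protein-coding genes (dashed, 5.58 RPKM). Block H has the highest median, 4.32 RPKM, and ZNF146 in block E the highest single level, 23.8 RPKM.

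The highest level per length belonged to ZNF146 (block E, chr19:36214602-36238774, plus strand), which encodes zinc fingers without a KRAB domain. It had 31.1 RPKM in shRNA 1, 22.9 in shRNA 2 and 17.5 in the control, and both shRNA libraries were above the control. ZNF524 followed with 10.5 RPKM in shRNA 1, 23.9 in shRNA 2 and 17 in the control, so that the shRNA libraries stood on either side of the control. ZNF787 had 16.6, 15.6 and 14.5 RPKM in shRNA 1, shRNA 2 and the control, close together in all 3. ZNF428 (13.4, 17 and 15.6 RPKM in that order), ZNF575 (8.59, 13 and 11.9) and ZNF579 (9.7, 13.1 and 9.92) completed the upper 6, and in each of these the control lay between the shRNA libraries. These last 5 have GC-rich transcripts, 60.7 to 70.3% GC, against a median of 43.0% over the 177 tested genes. The lead of ZNF146 over ZNF524 in mean level, 23.8 against 17.2 RPKM, does not hold in the library labelled shRNA 2, where ZNF524 was higher. Within blocks, the highest mean levels belonged to ZNF317 in A (7.26 RPKM), ZNF791 in B (4.16), ZNF714 in C (2.62), ZNF302 in D (4.51), ZNF331 in G (3.94) and ZNF587 in I (6.61).

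The design asks whether RNA levels differ in cells with an shRNA against SNORD12B. With both shRNA libraries set against the control in edgeR's quasi-likelihood test, 0 of the 177 genes passed a Benjamini-Hochberg adjusted p of 0.05 in either direction, where 0.0% of all 17801 tested genes did. At an unadjusted p under 0.05, 0 of the 177 passed, against 0.41% of all tested genes higher and 0.921% lower. The adjusted count was also 0 with edgeR's likelihood ratio test, limma-voom and DESeq2, and the unadjusted counts were 2, 0 and 0 with these. The spread in this fit comes from the 2 shRNA lines alone, with 1 residual degree of freedom for each gene. Each gene's spread was moderated toward that of all genes, with a median of 8.35 prior degrees of freedom. The common biological coefficient of variation was 26.7%. Among the 177 genes the smallest unadjusted p of edgeR's quasi-likelihood test was 0.0658, for ZNF780A.

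As a group the genes stood slightly above the control. In the library labelled shRNA 1, 100 of 177 (56.5%) were above the control and 77 (43.5%) below it, where 51.5% and 48.5% of all tested genes were. In that labelled shRNA 2, 120 of 177 (67.8%) were above and 57 (32.2%) below, where 49.7% and 50.3% of all tested genes were. Between the shRNA libraries, 80 (45.2%) were higher and 97 (54.8%) lower in shRNA 1 than in shRNA 2, against 50.1% and 49.9% of all tested genes. The median log2 ratio was 0.07 for shRNA 1 and 0.14 for shRNA 2, against 0.01 and 0.00 over all tested genes. ZNF-numbered genes of other chromosomes had medians of 0.13 and 0.06, and the other protein-coding genes of chromosome 19 had -0.06 and 0.01. Of these sets, 60.4% and 43.3% were above the control in shRNA 1, and 56.9% and 51.5% in shRNA 2. Both ratios have the same control library in them, so they are not independent. The RNA comes from whole cultures, in which fewer cells with a transcript and less of it per cell cannot be told apart.

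Past 1.5-fold, 22 genes (12.4%) were higher in the library labelled shRNA 1 than in the control and 11 (6.21%) lower, against 10.8% and 12.7% of all tested genes. In the library labelled shRNA 2, 27 (15.3%) were higher and 5 (2.82%) lower, against 9.38% and 9.92%. Between the shRNA libraries, 14 (7.91%) were at least 1.5-fold higher in shRNA 1 than in shRNA 2 and 28 (15.8%) lower, against 14.8% and 15.8% of all tested genes. The count of genes 1.5-fold higher in shRNA 1 is near its background, and the counts of genes 1.5-fold lower than the control are below theirs. The low counts are not particular to chromosome 19. Of tested ZNF-numbered genes of other chromosomes, 6.67% were 1.5-fold lower in shRNA 1 and 3.11% in shRNA 2, while 12.9% and 7.11% were higher. Among the 71 genes with a mean of at least 10 CPM, whose counting error is smallest, the medians were 0.12 for shRNA 1 and 0.14 for shRNA 2. The 10361 tested genes at that level had medians of 0.02 and -0.01. Of the 71, 53.5% were above the control in shRNA 1, near the 52.6% of all tested genes at that level. In shRNA 2 the shares were 69.0% and 48.9%.

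The blocks differed in where their genes lay. Block E, at 36.2 to 37.8 Mb, had 18 tested genes with a median log2 ratio of 0.39 in shRNA 1, where 15 were above the control, and 0.34 in shRNA 2, where 14 were. Block G, at 51.6 to 53.6 Mb, had 27 tested genes with medians of 0.22 (20 above the control) and 0.30 (21 above). The small block D, at 34.7 to 35 Mb, had 5 tested genes and medians of 0.48 and 0.25, with 4 above the control in each library. Single genes ranged widely, from -1.62 to 1.19 in shRNA 1 and from -0.37 to 1.97 in shRNA 2 for block E.

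In block F, at 43.5 to 44.5 Mb, 19 of 22 genes were above the control in shRNA 2, with a median of 0.21, but 11 of 22 in shRNA 1, with a median of 0.03. Block C leaned the other way, with 11 of 14 above the control in shRNA 1 (median 0.21) and 5 of 14 in shRNA 2 (median -0.10), but its median in shRNA 1 was 0.05 once genes averaging under 5 CPM were dropped and 0.03 when centred on genes of like GC, an alternative described with the GC values. Block A had 2 of 11 above the control in shRNA 1 (median -0.19) and 7 of 11 in shRNA 2 (0.11). Block H had 6 and 10 of 11 above it, with medians of 0.04 and 0.28. Block B had 7 of 12 above it in each library, with medians of 0.05 and 0.03. Block I, the largest with 42 tested genes at 57.2 to 58.5 Mb, had 15 above the control in shRNA 1 (median -0.11) and 23 in shRNA 2 (median 0.02). Protein-coding genes between the ZNF genes were few. In block I 5 such neighbours had medians of -0.04 and 0.00, in block H 9 had -0.03 and 0.07, and in block F 9 had -0.27 and 0.05. In block A 3 had -0.44 and 0.15, in block B 2 had -0.09 and -0.33, in block E 2 had -0.12 and -0.21, and in block G 2 had 0.87 and 0.42.

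**Figure D3:**
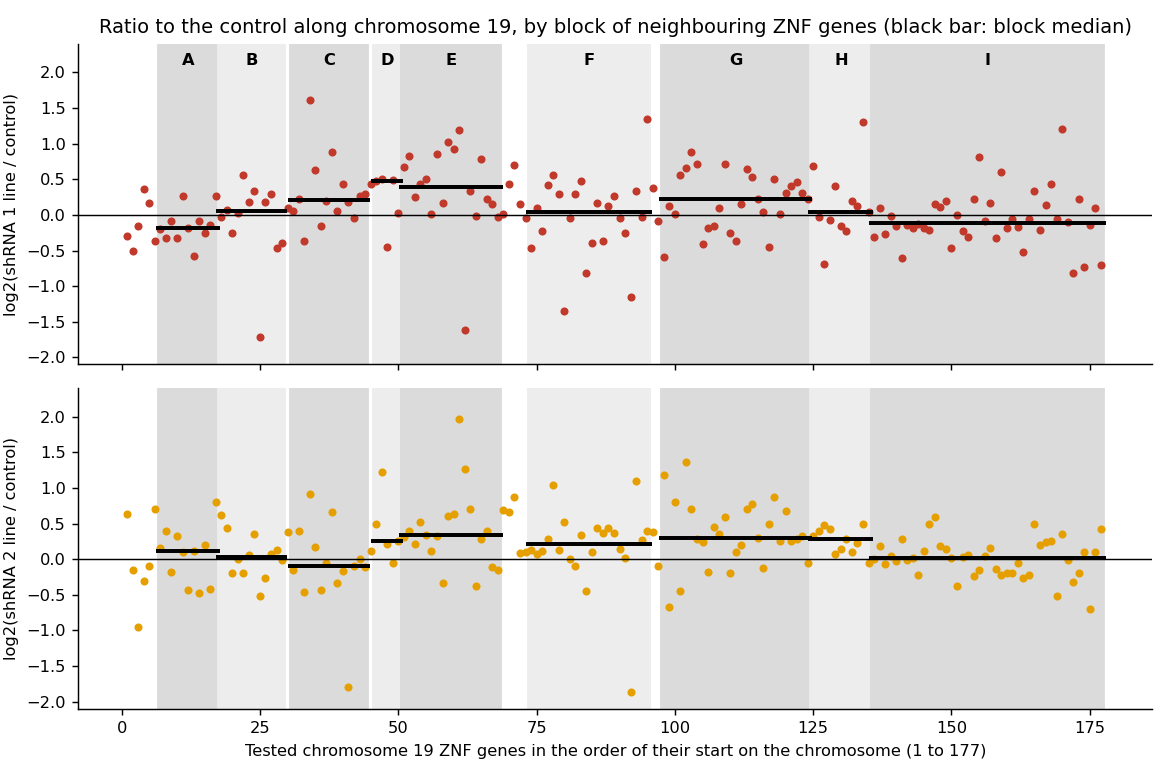
Log2 ratio of shRNA 1 to control (upper panel) and of shRNA 2 to control (lower panel) for the 177 tested genes (points) in their order along chromosome 19, with blocks A to I shaded and block medians as black bars. Block medians of B, D, E, F, G and H lie above 0 in both panels, those of B, F and H at 0.05 or less in shRNA 1. That of block I lies at -0.11 and 0.02, with single genes of every block spread around the bars.

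Genes next to each other were at most slightly more alike than any pair. Over 153 pairs of adjacent tested genes of the same block, the Pearson correlation of their log2 ratios was 0.044 for shRNA 1 and 0.085 for shRNA 2, given as a description since pairs share genes. The pair had the same sign in 55.6% of cases for each library, while any pair of the tested genes had it in 50.6% for shRNA 1 and 56.1% for shRNA 2. The median absolute difference of their log2 ratios was 0.40 for adjacent pairs and 0.41 for any pair in shRNA 1, and 0.30 and 0.37 in shRNA 2.

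The GC content of the transcript moved with these values. Split by GC into 4 classes of near-equal size, the 45 tested genes of the lowest class (34.1 to 40.4% GC) had median log2 ratios of 0.42 in shRNA 1, with 40 above the control, and 0.32 in shRNA 2, with 35 above. The other classes had medians of 0.03, -0.09 and -0.04 in shRNA 1 and 0.15, -0.05 and 0.13 in shRNA 2, from low to high GC. Other protein-coding genes had a smaller gradient of the same direction at low GC. Their medians were 0.24 and 0.12 among the 1604 genes with 30.2 to 39.1% GC, where 27 ZNF genes had 0.44 and 0.40, and -0.03 and -0.07 at 45.1 to 48.6% GC, where 25 ZNF genes had -0.06 and -0.05. Block medians of GC were 39.7% in E, 41.5% in G, 37.3% in C, 46.1% in I and 64.8% in H. With each ratio centred on other protein-coding genes of like GC, an alternative chosen after seeing the data, the family's medians were 0.02 in shRNA 1 and 0.14 in shRNA 2, those of block E 0.18 and 0.26, and those of block G 0.10 and 0.25. What part library preparation or sequencing had in the GC gradient was not tested.

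**Figure D4:**
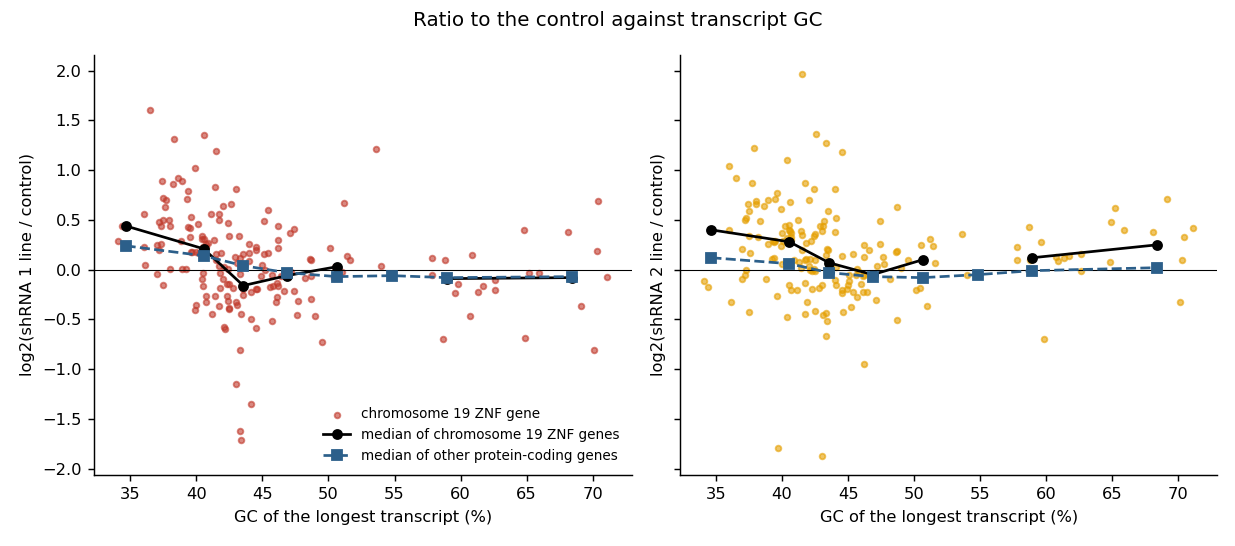
Log2 ratio to the control against the GC content of the longest transcript (percent), for shRNA 1 (left) and shRNA 2 (right). Points are the chromosome 19 ZNF genes, black circles their medians in 8 GC classes (classes under 8 genes left out) and blue squares the medians of other protein-coding genes, and both lines are highest at the lowest GC.

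Some single genes stood out in both shRNA libraries, by the rule of the largest smaller ratio at 1 CPM or more. None of them passed the adjusted test. ZNF780A (chr19:40069152-40090938, minus strand, outside the blocks) had 22.8 CPM in shRNA 1, 25.5 in shRNA 2 and 13.9 in the control, from 346, 444 and 214 counts. The ratio to the control was 1.63 (95% counting interval 1.37 to 1.95) in shRNA 1 and 1.83 (1.55 to 2.17) in shRNA 2. Its neighbour and closest relative ZNF780B, named after its values were seen, had 15.2, 17.8 and 11.2 CPM in shRNA 1, shRNA 2 and the control, and shares few 50-base words with it (1.99% of those of ZNF780A), so reads of one are seldom ambiguous with the other.

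ZNF600 (block G) had 13.3 CPM in shRNA 1, 13.9 in shRNA 2 and 8.53 in the control. ZNF420 (block E), known as Apak, a KRAB protein that restrains p53, had 7.63, 6.27 and 3.97 CPM in that order. ZNF708 (block C), whose promoter and linkers are printed above, had 6.64 CPM in shRNA 1, 5.64 in shRNA 2 and 3.52 in the control. In all 3 the control was the lowest library, with intervals of the ratio that lay above 1, for example 1.34 to 2.68 in shRNA 1 and 1.14 to 2.28 in shRNA 2 for ZNF708. The other members chosen by this rule rest on few counts. ZNF615 had 53 counts in shRNA 1, 53 in shRNA 2 and 28 in the control. ZNF350, also called ZBRK1, a partner of BRCA1 in repression, had 23, 44 and 14 counts in that order. ZNF253 had 25, 17 and 7 counts, and ZNF585A 16, 33 and 6. The interval of the ratio includes or touches 1 for ZNF350 in shRNA 1 (0.818 to 3.49), for ZNF253 in shRNA 2 (0.846 to 6.12) and for ZNF585A in shRNA 1 (1.0 to 8.4).

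**Figure D5:**
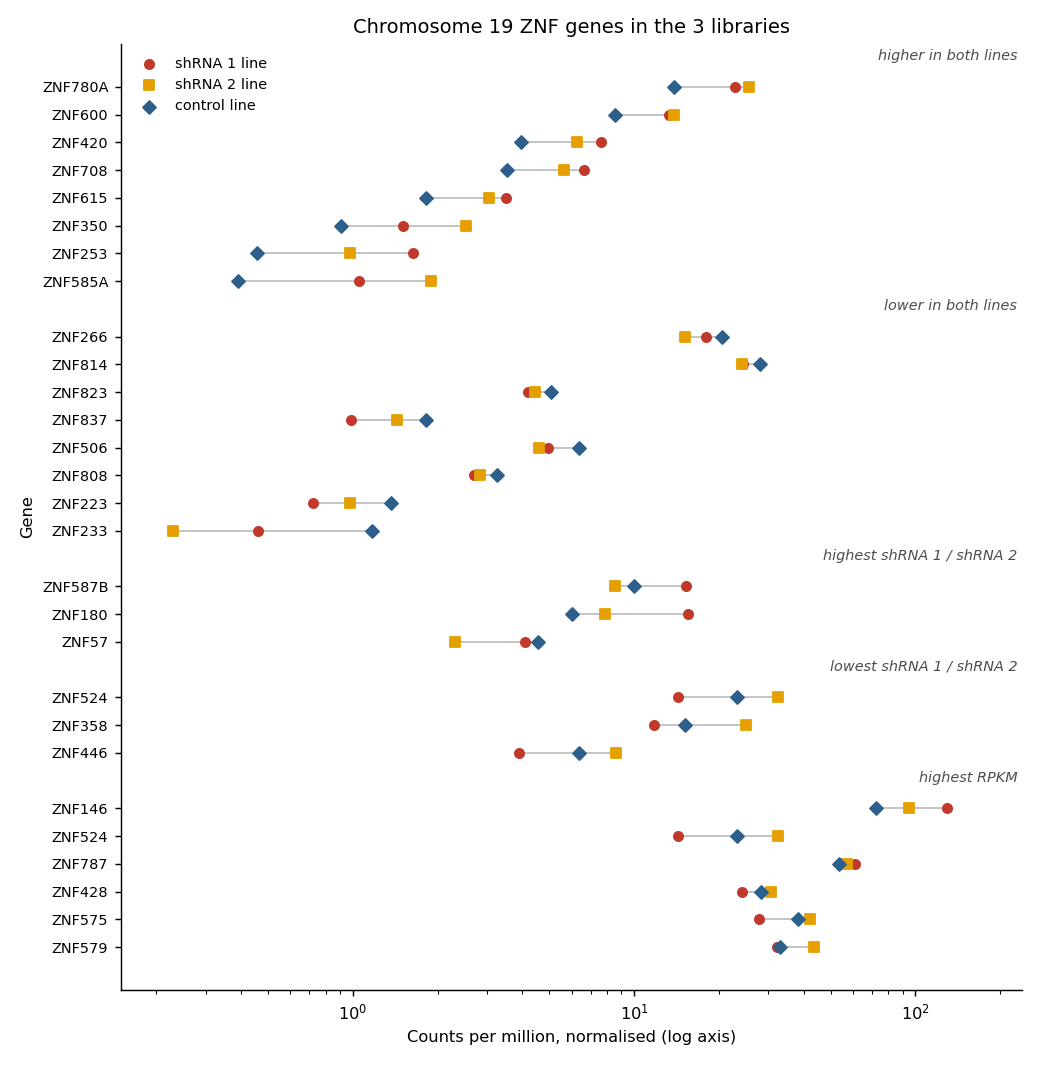
Normalised CPM (log axis) in the shRNA 1, shRNA 2 and control libraries, 1 library each, for the genes chosen by the rules on ratios and on level per length (ZNF524 meets 2 of them and appears under both). In the upper 8 genes the control is the lowest of the 3 libraries and in the next 8 the highest, as the rule requires.

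The genes chosen as lower in both shRNA libraries lay closer to the control, or had few counts. ZNF266 (block A) had 18.0 CPM in shRNA 1, 15.2 in shRNA 2 and 20.6 in the control, and ZNF814 (block I) 24.4, 24.2 and 27.9 CPM. ZNF506 (block C) had 4.93, 4.6 and 6.38 CPM in that order. The counting intervals of the ratio include 1 for all 3 in shRNA 1 (0.74 to 1.03 for ZNF266) and lie below 1 for all 3 in shRNA 2 (0.625 to 0.872 for ZNF266, 0.758 to 0.996 for ZNF814 and 0.53 to 0.979 for ZNF506). ZNF823, from block B, had 4.21 CPM in shRNA 1, 4.43 in shRNA 2 and 5.08 in the control. ZNF808, whose loss in humans is known to impair development of the pancreas, had 2.7, 2.82 and 3.26 CPM. ZNF233 had 7, 4 and 18 counts in shRNA 1, shRNA 2 and the control, ZNF223 11, 17 and 21, and ZNF837 15, 25 and 28. Of these, the ratio's interval excludes 1 in both libraries for ZNF233 alone (0.139 to 0.986 and 0.0483 to 0.596).

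A further set differed most between the shRNA libraries. ZNF180 (block F) had 15.5 CPM in shRNA 1, 7.88 in shRNA 2 and 5.99 in the control, a ratio of 1.96 between the shRNA libraries (1.58 to 2.44). ZNF587B had 15.3, 8.57 and 10.0 CPM in that order and ZNF57 4.08, 2.3 and 4.56, with ratios of 1.78 and 1.77. In the opposite direction, ZNF524 had 14.3 CPM in shRNA 1, 32.5 in shRNA 2 and 23.2 in the control, a ratio of 0.441 (0.376 to 0.517). ZNF358 had 11.8, 25 and 15.2 CPM and ZNF446 3.88, 8.63 and 6.38, with ratios of 0.472 and 0.45. The 3 lower in shRNA 1 have GC-rich transcripts (64.9, 69.1 and 58.7%), and the 3 higher in shRNA 1 do not (40.6, 45.4 and 46.2%). Of all the genes named by rule, 8 overlap another gene on the opposite strand over more than 10% of their exon length. Reads were counted by strand, but how well the libraries kept strand was not tested, so the counts of these 8 are uncertain. The 8 are ZNF587 (33.3%, with ZNF814), ZNF446 (31.3%, with SLC27A5), ZNF428 (27.6%, with SRRM5), ZNF814 (20.4%, with ZNF587), ZNF358 (14.1%), ZNF524 (14.1%, with FIZ1), ZNF57 (13.1%) and ZNF146 (10.8%, with ZNF565). Overlap on the same strand is not part of this list. It covered 20.2% of the exon length of ZNF358 and 9.81% of that of ZNF708. Of the 177 tested genes, 62 had some, which also leaves counts uncertain.

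Copies of near-identical sequence could move counts between relatives. Of the tested genes, 15 share over 10% of their 50-base words with another gene, up to 70.7% for ZNF320, whose closest relative ZNF468 is its neighbour in block G. ZNF587 (6.71 RPKM in shRNA 1, 6.12 in shRNA 2 and 6.99 in the control), known with ZNF417 to repress HERV-K elements, shares 18.8%, mostly with ZNF417. ZNF585A shares 11.7%, mostly with ZNF585B. The values of these are therefore uncertain.

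Among the tested genes, the sequence words went with small differences in level. Tested genes with 4 or more linker copies (41) had a median of 1.24 RPKM, those with 1 to 3 copies (47) 1.55 RPKM and those with none (88) 2.1 RPKM. Their median log2 ratios were 0.20, 0.13 and -0.01 in shRNA 1, and 0.17, 0.25 and 0.11 in shRNA 2. Of the 44 genes with the promoter word, 20 had enough counts to be tested, against 138 of the 175 genes whose promoter lacks it. Over the tested genes alone, the median was 1.06 RPKM with the word and 1.68 RPKM without it. Median log2 ratios of the tested genes with the word were 0.18 in shRNA 1 and -0.03 in shRNA 2, against 0.06 and 0.20 without it. Most genes with the word lie in blocks B and C, so word and block are mixed in these pooled values. The word is in 15 of 25 promoters of block B and in 26 of 29 of block C. Tested were 7 genes with it and 5 without it in block B, and 11 with it and 0 without it in block C. In block B, 7 tested genes with the word had medians of 0.03 in shRNA 1 and 0.06 in shRNA 2, against 0.18 and -0.20 for 5 tested genes without it. Their median levels were 1.06 RPKM with the word and 0.82 RPKM without it, the reverse of the order over all tested genes. In block C no tested gene with a matched promoter lacked it, so there word and block cannot be told apart.

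RNA of the listed genes whose proteins work with KRAB zinc fingers was found in every library. Of 25 corepressor and heterochromatin genes, 25 were tested and 0 passed edgeR's quasi-likelihood test after Benjamini-Hochberg adjustment. Their median log2 ratios were 0.12 in shRNA 1 and -0.08 in shRNA 2. TRIM28, the corepressor that binds the KRAB domain, had 479 CPM in shRNA 1, 301 in shRNA 2 and 337 in the control. SETDB1, the methyltransferase it brings, had 51.3, 60.0 and 58.3 CPM in that order. TASOR, a subunit of the HUSH silencing complex, had 77.7, 78.8 and 54.7 CPM, a fitted log2 fold change of 0.52 ± 0.32 (SE). SUV39H2, another histone methyltransferase, had 27.5, 15.6 and 15.5 CPM, a fitted log2 fold change of 0.48 ± 0.44 (SE). UHRF1, which recruits the DNA methyltransferase DNMT1 and is named after its values were seen, had 178 CPM in shRNA 1, 64.9 in shRNA 2 and 134 in the control, with log2 ratios of 0.41 and -1.04. TRIM28 was thus above the control in shRNA 1 and below it in shRNA 2, and SUV39H2 was higher in shRNA 1 than in the other libraries. ZNF274, which brings SETDB1 to the 3′ ends of ZNF genes themselves, had 40.8 CPM in shRNA 1, 43.8 in shRNA 2 and 36.9 in the control. Its fitted log2 fold change was 0.20 ± 0.35 (SE), within the error of the fit.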

How the data were processed

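RNA of 3 KYSE30 lines was measured in 1 library each. The values are raw counts per gene as deposited, made with featureCounts 1.6.4 at strand option 1, per the file headers. The submitters' processing notes name TopHat2, HTSeq and hg19 instead. Start and end were identical to GENCODE 29 for all 52179 identifiers found there in the same version, and coordinates are therefore those of hg38 (GRCh38). No column was left unused, and 0 rows named no gene.

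edgeR 4.0.16, limma 3.58.1 and DESeq2 1.42.0 were run in R 4.3.3, and scipy 1.17.1 in Python 3.11.15. The 17801 genes that passed filterByExpr were scaled by TMM (factors 1.004, 1.003 and 0.9927 for shRNA 1, shRNA 2 and control). The quasi-likelihood test compared both shRNA libraries with the control on both sides, with Benjamini-Hochberg adjusted p under 0.05 as the threshold. The spread, moderated over all genes, comes from 2 lines with different shRNAs, not from replicate cultures, and the SE is worked back from the F statistic. Ratios of 1 library to another are untested and use log-CPM with 2 added as prior count. RPKM uses the exon length in the table. Count ratios have exact conditional 95% intervals, which cover counting error only. GC content is that of the longest GENCODE 29 transcript.

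Named genes are the 6 with the highest mean RPKM, the 8 highest and 8 lowest in both shRNA libraries at 1 CPM or more (ranked by the smaller ratio), the 3 genes at either end of the ratio of shRNA 1 to shRNA 2 at 2 CPM or more, the gene with the highest mean RPKM of each block, ZNF274, TRIM28, SETDB1 and the 2 corepressors with the largest absolute fitted log2 fold change. The members, lists and rules were chosen with earlier results of these data known. Alternatives tried were other scalings, filters, tests, prior counts, gaps between blocks, a 2-fold limit, and leaving out genes that overlap on the opposite strand or share sequence.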

Additional observations from a re-analysis of the deposited data

Results flagged for a closer look

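A pair of genes lay at least 1.5-fold above the control in one shRNA library and at least 1.5-fold below it in the other. ZNF585B had 0 counts in the library labelled shRNA 1, 14 in that labelled shRNA 2 and 4 in the control, and the difference of its log2 ratios was -2.89, a value that depends on the prior count of 2 because of the count of 0. ZNF175 had 2 counts in shRNA 1, 13 in shRNA 2 and 4 in the control, with a difference of -1.77. With 1 library a line the difference was not tested.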

How the results depend on the processing

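The count of 0 genes past the adjusted threshold was the same under every alternative run. Percentages of the tested genes past 1.5-fold changed with a filter at a mean of at least 5 CPM (118 genes): 2.5% lower in shRNA 1 than in the control, 0.0% lower in shRNA 2 than in the control, 2.5% higher and 10.2% lower in shRNA 1 than in shRNA 2. With a 2-fold limit they were 3.4% higher and 2.3% lower in shRNA 1 than in the control, 4.0% higher in shRNA 2 than in the control, and 1.1% higher and 4.0% lower in shRNA 1 than in shRNA 2. Shares over all tested genes at this filter or this limit are not given here, so these percentages cannot be read against a background.

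Centring on genes of like GC, added after seeing the data, gave medians of 0.02 for the family, 0.26 for block D, 0.18 for block E, 0.10 for block G and 0.03 for block C in shRNA 1 and 0.26 for block E in shRNA 2, and turned block F in shRNA 1 to -0.01. The filter at 5 CPM gave 0.51 for block D in shRNA 2 and 0.44 for block E and 0.05 for block C in shRNA 1, and no filter gave 0.32 for block E and -0.01 for block H in shRNA 1, against 0.04. Leaving out genes that overlap on the opposite strand gave 0.48 for block E, 0.28 for block F and 0.14 for block G in shRNA 1, and 0.20 for block E in shRNA 2. A wider allowed gap joined block H to block I, with -0.07 and 0.06. For these differences the cause was not tested, beyond the fewer genes left by the filters.

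With 1 shRNA library left out no test remains, and the values are the ratios of the other library. Without replicate 1 and without replicate 2 these were 0.12 and -0.22 for ZNF428, 0.13 and -0.47 for ZNF575, -0.22 and 0.60 for ZNF587B, 0.43 and -0.70 for ZNF446, -0.05 and 0.22 for ZNF331, 0.40 and -0.03 for ZNF579, 0.71 and -0.37 for ZNF358, and 0.48 and -0.69 for ZNF524, which had -0.09 in limma-voom. In these genes the sign of the fitted log2 fold change turned with the line left out. The control has 1 library and could not be left out. Counts of genes on 1 side of the control in both libraries were not used, as both ratios share that control. No paired analysis was possible because each line has 1 library and the control has no second replicate number.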
